A study of Mus musculus with 12 samples.

Results

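Fibroblast-like synoviocytes, the stromal cells of the joint lining that make synovial matrix, were grown in culture and compared after doxycycline withdrawal and under doxycycline. The comparison is between 8 of the 12 libraries of the series, chosen by their column headings in the deposited read-count table: 4 named DOX OFF, called resolution here, and 4 named DOX ON, called inflammation. Mice of the inflammation group drank 1 mg/ml doxycycline in water with 5% sucrose for 3 weeks, and mice of the resolution group had the same course, which was then stopped. The remaining 4 libraries, called homeostasis, have columns headed WT and came from mice given 5% sucrose water for 3 weeks, and their levels are given for context without a test. They also entered the filter, the scaling and the estimate of spread, because the main fit used all 12 libraries. The extraction protocol, shared by all 12 libraries, speaks of synovial fibroblasts of mice with TNF-induced arthritis, and what WT stands for in the headings is not spelled out, so homeostasis may differ from the other groups in genotype as well as treatment. The series asks how activated synoviocytes disturb endothelial cells in the resolution phase. The transgene, its promoter, the strain, age and sex of the mice, the joints used, the passage of the cells and the time since withdrawal are not given in the sources used. Whether each library stands for its own animal is not stated in the labels, so the p-values measure the spread between these libraries, which may be technical.

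TNF is a cytokine that acts on synoviocytes through its receptors to switch on NF-kB, the transcription factor family behind many chemokine, cytokine and protease genes. Activated synoviocytes invade cartilage, recruit leukocytes and signal to blood vessels, and parts of this state can persist in culture as altered chromatin. Interferon signalling is a second arm of the response: STAT and IRF factors bind short DNA elements in front of antiviral and antigen presentation genes.

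Library totals ran from 20563912 to 24145832 counts in inflammation and from 18120745 to 21395822 in resolution, where 3 counts amount to between 0.124 and 0.166 CPM, a read count scaled to library size. Levels below use the library total after TMM scaling, a correction for composition, and lists of 4 values are in the order of replicates 1 to 4. The biological coefficient of variation was 15% among the inflammation and 18.6% among the resolution libraries, and 21.8% among the homeostasis libraries, which also enter the fit. On the first principal component of the 8 libraries, which held 73.1% of the variance, the inflammation libraries lay between -26.6 and -25.8 and the resolution libraries between 24.2 and 28.6. Markers of synoviocytes were present in all 8 libraries. Prg4, the lubricin gene of lining cells, lay between 474 and 1370 CPM. Thy1, a marker of sublining fibroblasts, lay between 30.7 and 71.7 CPM, and Cdh11, the cadherin of synoviocytes, between 260 and 461 CPM. These were picked from a longer list, whose 15 tested members summed to 25800 to 28300 CPM in inflammation and 14300 to 20200 CPM in resolution. Of the untested endothelial markers, Cldn5 had 0 counts in both groups. Tie1 had 2 in inflammation and 5 in resolution, Emcn 0 and 9, and Robo4 1 and 1, and 8 others were tested. Among lymphocyte, neutrophil and mast cell markers Cd3e had 0 counts in both groups, Ly6g 21 and 7, and Kit 0 and 13. The 1 tested member of that list, S100a8, lay at 11.3 to 22.2 CPM in inflammation and 13.8 to 20.3 CPM in resolution.

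Tnf itself read 0.96, 0.573, 1.76 and 0.795 CPM in inflammation and 0.258, 0.467, 0.136 and 0.37 CPM in resolution. The groups did not overlap, and Tnf fell by 1.70 ± 0.52 on the log2 scale (± is the standard error throughout), with an adjusted p of 0.031. Adjusted p values come from edgeR's quasi-likelihood test with Benjamini-Hochberg adjustment over 15049 genes, and a gene is called at an adjusted p under 0.05. The Tnf call was lost without inflammation replicate 1 or 3 or resolution replicate 1, 3 or 4, with an adjusted p of up to 0.11, and with resolution 2 as the only resolution library the log2 fold change was -1.11. These levels are near the floor of the libraries. In homeostasis Tnf averaged 3.97 ± 2.20 CPM (SD, n = 4).

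Of 15049 genes tested, 1282 (8.52%) were higher and 1149 (7.64%) were lower in resolution, 318 and 488 of them by at least 2-fold. These shares are the background for every list count below. In 2838 genes (18.9%) the 4 resolution libraries did not overlap the 4 inflammation libraries. A fit of the 8 libraries alone called 1623 higher and 1444 lower, and adding the replicate number as a block to that fit gave 2585 and 2223. The block on all 12 libraries gave 948 and 950. Later counts with the block on 8 libraries therefore differ from the main fit both by the block and by leaving out homeostasis. The median log2 fold change over all tested genes was 0.02, and with scaling by total count alone, which moved it to 0.09, the calls were 1888 higher and 953 lower (66.5% higher, against 52.7%). The count depended much on single libraries: without resolution 2 the calls were 2360 higher and 1831 lower. Setting resolution 2 apart was chosen after the data were seen. Where it was the only resolution library, it is assumed to vary like the other groups. Only log2 fold changes of that fit are given, because 1 library has less power to pass the test. Leaving out other libraries lowered the number higher to 603 (inflammation 1), 566 (inflammation 2), 734 (resolution 1), 522 (resolution 3) or 482 (resolution 4), and the number lower to 760 without resolution 4.

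**Figure D1:**
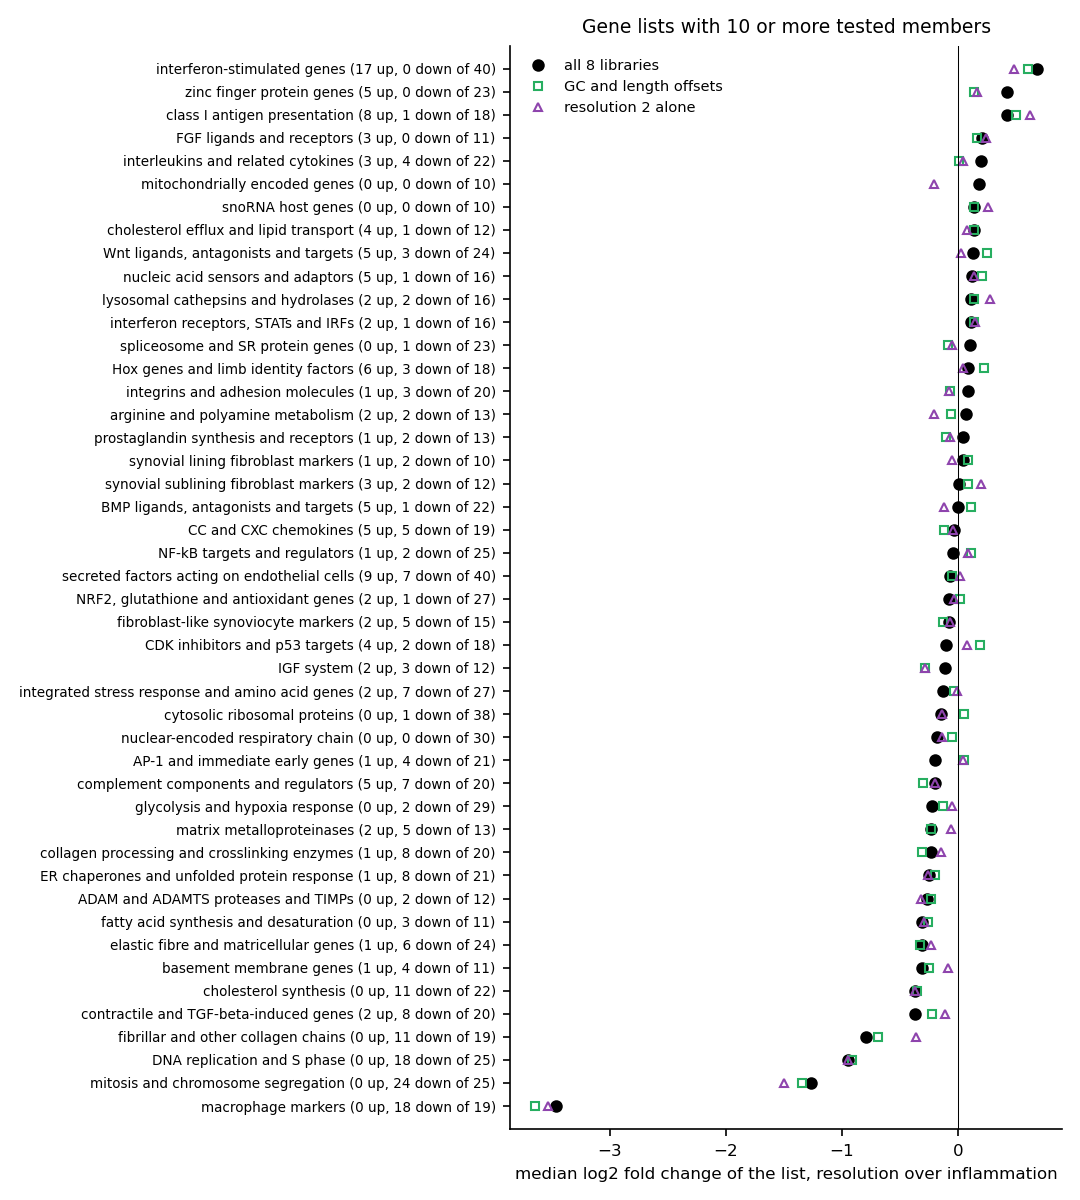
Median log2 fold change (resolution over inflammation, x axis) of each gene list with 10 or more tested members (y axis, with the number of members called higher and lower). Circles, labelled all 8 libraries, show the main fit, which used all 12. Squares show the fit with GC and length offsets and triangles resolution 2 as the only resolution library. Macrophage, mitosis and DNA replication genes lie lowest under each of these settings; interferon-stimulated genes lie highest with all libraries and with the offsets, and class I genes with resolution 2 alone.

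The change on withdrawal followed the GC content of the transcripts. When 14128 genes with a reference transcript (93.9% of those tested) were cut into 5 bins of about equal size by GC content, the median log2 fold change was 0.35 in the lowest bin (31 to 44.3% GC), 0.22, 0.02 and -0.16 in the next ones, and -0.22 in the highest (55.9 to 84.9%). In the lowest bin 20.3% of genes were called higher and 3.5% lower, whereas in the highest 2.0% were higher and 12.9% lower. Across genes, which are not independent replicates, log2 fold change and GC content had a Pearson correlation of -0.29 and a Spearman correlation of -0.48. Genes called higher had a median GC content of 44.6% and a median transcript length of 4056 bases, against 53.6% and 2818 bases for genes called lower.

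The libraries did not share this trend evenly. The correlation of a library's deviation from the 8-library mean with GC content was -0.27, -0.45 and -0.39 in resolution 1, 3 and 4, and 0.29 in resolution 2. In the inflammation libraries it was 0.30, 0.33, 0.15 and 0.13, so that resolution 2 lay within their range. With resolution 2 as the only resolution library the bins had medians of 0.00, -0.05, -0.01, 0.00 and 0.03, and without it 0.43, 0.28, 0.01, -0.22 and -0.32. Offsets for GC content and length, fitted per library, are built to remove such a trend. The bin medians of 0.02 to 0.06 obtained with them therefore follow from the fit. With the offsets 1190 genes were called higher and 1164 lower, among them 1672 of the 2340 original calls that could be tested again.

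Small changes lost their call with the offsets more often than large ones. Among genes called higher by less than 2-fold, 54.0% of 952 were called the same way with the offsets, against 90.1% of 222 at 2- to 4-fold and 100% of 52 above. Among genes called lower the shares were 70.4% of 641, 94.7% of 284 and 98.4% of 189. With resolution 2 as the only resolution library 84.9% of the genes called higher by less than 2-fold kept their direction, and 99.5% of those at 2- to 4-fold. For genes called lower these shares were 99.7% and 100%. Resolution 2 and the same inflammation libraries had entered the calls, so this agreement is partly built in and is not independent support. Among the lists, 5 of 23 zinc finger protein genes, with a median GC content of 40%, were higher and 0 lower, with a median of 0.42. Over all genes 8.52% were higher and 7.64% lower. With the offsets 0 zinc finger protein genes were called in either direction and their median was 0.14. Their number higher ranged from 0 without resolution 4 to 7 without resolution 2, and was 11 with the replicate block.

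**Figure D2:**
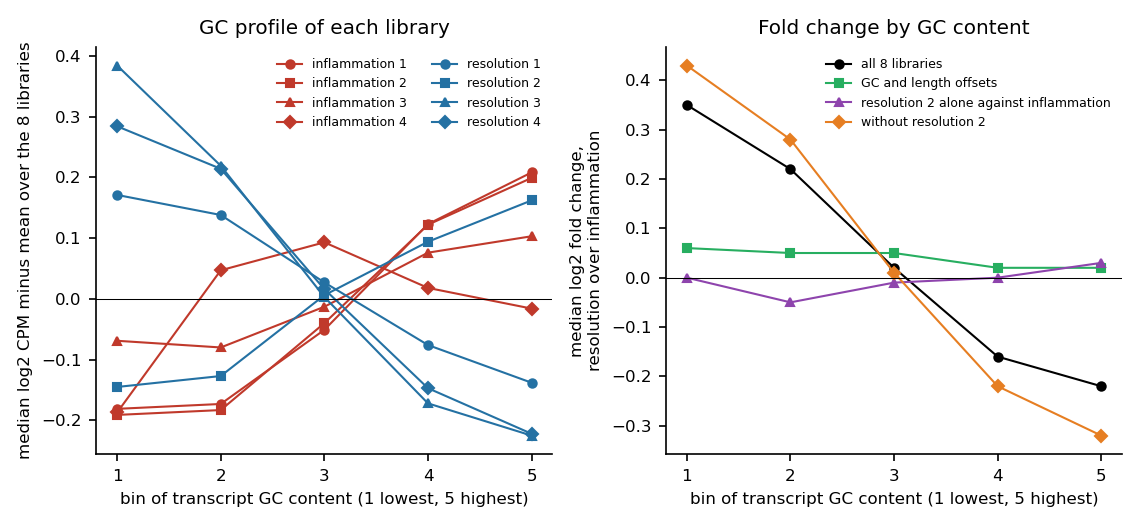
Left, median over genes of the log2 CPM deviation from the 8-library mean (y axis) in each bin of GC content (x axis), 1 line per library. Resolution 1, 3 and 4 slope down and resolution 2 slopes up with inflammation 1, 2 and 3. Inflammation 4 rises to 0.093 in the middle bin and falls to -0.016 in the highest. Right, median log2 fold change by bin under 4 settings, where the line labelled all 8 libraries is the main fit of all 12. The fall from 0.35 to -0.22 is absent with the offsets, which remove it by construction, and with resolution 2 alone.

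Genes of macrophages, the phagocytes that share the synovium with fibroblasts, had the lowest median of all lists. Of 22 listed macrophage markers 19 were tested, 18 were lower and 0 higher, and the median log2 fold change was -3.46, against 7.64% lower and a median of 0.02 over all genes. Their summed level was 747 to 831 CPM in inflammation, 73.9 to 83.1 CPM in resolution and 147 to 182 CPM in homeostasis. The exception was Mrc1, the mannose receptor (named after its values were seen), at 1.37 to 5.12 CPM in inflammation and 1.07 to 2.37 CPM in resolution (log2 fold change -0.76, adjusted p = 0.17). Cx3cr1 had 0 counts in both groups. In bulk samples such as these, fewer cells of a type and less RNA per cell cannot be told apart.

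Itgam, the integrin chain CD11b, read 49.9, 49.3, 50.7 and 67.7 CPM in inflammation and 1.19, 1.68, 1.72 and 1.2 CPM in resolution. Every inflammation library was far above every resolution library, and Itgam fell by 5.22 ± 0.27 (adjusted p = 1.5e-10). Tyrobp, an adaptor of myeloid receptors, read 14.7, 13.8, 9.79 and 8.62 CPM and then 0.103, 0.0467, 0.0908 and 0.231 CPM, a fall by 6.56 ± 0.37 (adjusted p = 3.7e-10). Marco, a scavenger receptor for bacteria and particles, read 11.4, 9.66, 16.7 and 17.9 CPM and then 0.103, 0.14, 0.227 and 0 CPM, a fall by 6.81 ± 0.40. The low group of both genes lay at or near the 3-count floor, so the size of these changes depends on few reads. In homeostasis Marco averaged 15.6 ± 3.87 CPM (SD, n = 4), beside 13.9 ± 3.99 CPM in inflammation, whereas Itgam averaged 5.64 ± 2.25 CPM. Emr1, the F4/80 antigen, fell by 4.00 ± 0.37 and Cd68, a lysosomal protein that fibroblasts also express, by 1.68 ± 0.18. With resolution 2 alone Emr1 had a log2 fold change of -5.03 and Tyrobp of -7.81.

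Further blood-cell and myeloid genes were among the 10 largest falls. Hcls1, a signalling protein of blood cells, fell by 4.85 ± 0.28, Ncf1, a subunit of the phagocyte oxidase, by 4.58 ± 0.33, Myo1f, a myosin of leukocytes, by 4.48 ± 0.29, and Wfdc17 by 4.52 ± 0.40. Hcls1 had a log2 fold change of -4.04 with resolution 2 alone. The macrophage C-type lectin gene Clec4d, with a transcript of the lowest GC bin, read 30.1, 26.1, 29.9 and 38 CPM in inflammation and 1.44, 0.841, 1.59 and 2.22 CPM in resolution. It fell by 4.34 ± 0.24, and by 5.20 with resolution 2 alone. Bst1, an ectoenzyme of myeloid and stromal cells in the same GC bin, fell by 3.75 ± 0.34. These falls ran against the GC trend, which was upward in that bin.

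Arg1, the arginase of alternatively activated macrophages, changed most among the genes that met the naming conditions. It read 65.4, 71.4, 36.9 and 34.3 CPM in inflammation and 0.567, 0.467, 0 and 0.324 CPM in resolution, and fell by 7.26 ± 0.43 (adjusted p = 4.8e-10). In homeostasis it lay between 0 and 0.215 CPM. Of the other arginine and polyamine genes 1 was lower and 2 were higher among 13 tested (1 higher without inflammation 2, inflammation 3 or resolution 4). The shares over all genes were 7.64% lower and 8.52% higher.

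Proteases of the matrix metalloproteinase family moved in both directions. Of 13 tested 5 were lower and 2 higher, against 7.64% and 8.52% over all genes (1 higher when any library but resolution 2 was left out). Mmp12, the macrophage elastase, read 87, 79.7, 121 and 128 CPM in inflammation and 7.16, 6.82, 10.5 and 6.89 CPM in resolution, and fell by 3.72 ± 0.23 (adjusted p = 5.7e-10). Mmp8, the neutrophil collagenase, fell by 5.54 ± 0.32 (6.59 with resolution 2 alone), and Mmp9, the gelatinase B of macrophages and osteoclasts, by 2.74 ± 0.50. Mmp13, the collagenase that synoviocytes and chondrocytes make against fibrillar collagen, ran the other way: 388, 368, 625 and 694 CPM against 957, 851, 1360 and 1110 CPM. The groups did not overlap, with a rise of 1.04 ± 0.22 (adjusted p = 0.0029). The summed macrophage markers fell in the same libraries as Arg1, Mmp8, Mmp9 and Mmp12, and their part in these results was not tested.

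**Figure D3:**
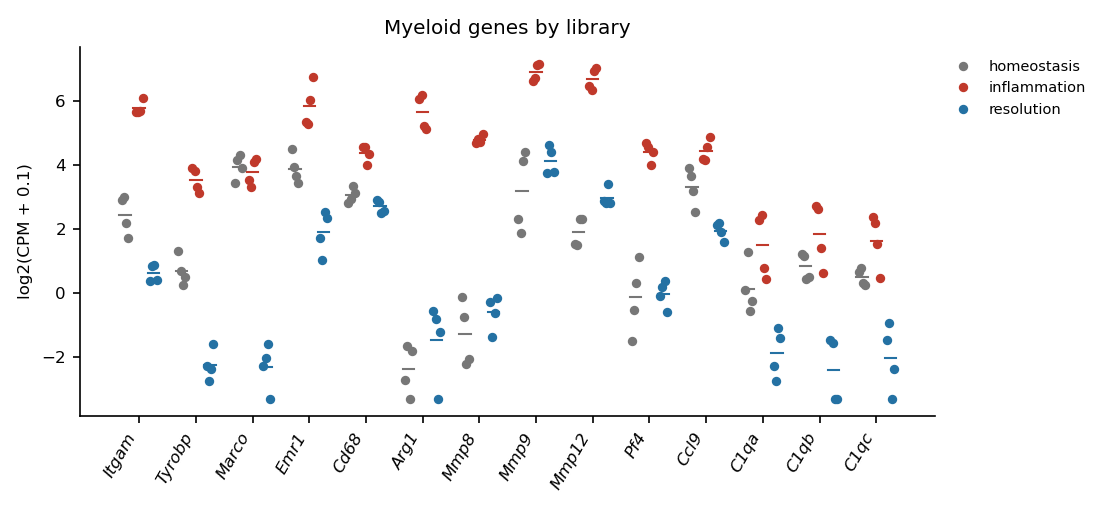
Level of 14 myeloid-associated genes (x axis) as log2(CPM + 0.1) (y axis), 1 point per library with the group mean as a line. For each gene all 4 inflammation libraries lie above all 4 resolution libraries; Marco is as high in homeostasis as in inflammation.

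Genes that mark position along the body and limb differed between the groups. Hox genes give cells of the limb their place along its length, Pitx1 is active in the hindlimb field, and Tbx5 in the forelimb field; adult fibroblasts keep such patterns. Of 18 tested genes of this list 6 were higher and 3 lower, with a median of 0.09, against 8.52% and 7.64% over all genes.

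Hoxc10 read 20.8, 20.1, 21.4 and 20.7 CPM in inflammation and 1.7, 0.561, 0.953 and 0.601 CPM in resolution. It fell by 4.45 ± 0.27 (adjusted p = 4.8e-10; log2 fold change -5.20 with resolution 2 alone). Pitx1 read 10.9, 8.97, 9.55 and 8 CPM and then 0.825, 1.07, 1.32 and 1.06 CPM, a fall by 3.12 ± 0.22. Both genes separated the groups completely. Hoxc9 fell by 2.84 ± 0.47, from 1.37 to 1.80 CPM down to 0.0924 to 0.467 CPM, with a log2 fold change of -1.73 with resolution 2 alone and -3.57 without it.

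Tbx5 moved the opposite way, from 0.0914, 0.205, 0.637 and 0.354 CPM in inflammation to 5.82, 6.17, 5.63 and 5.27 CPM in resolution. It rose by 4.16 ± 0.37 (adjusted p = 1.5e-07), the largest rise among genes that met the naming conditions. Hoxd13, which patterns the digits, read 4.25, 5.28, 4.9 and 5.52 CPM and then 31.6, 30.2, 31 and 31.8 CPM, a rise of 2.64 ± 0.15. The groups did not overlap for either gene; the Tbx5 levels in inflammation, spread from 0.0914 to 0.637 CPM, were near the floor. Hoxd11 rose by 2.68 ± 0.16 although its transcript belongs to the highest GC bin, and Hoxd10 by 2.66 ± 0.21. Hoxd8 (0.98 ± 0.28) and Hoxd9 (1.11 ± 0.36) also passed; they and Hoxc9 were named after their values were seen. The Hoxd8 call was lost without inflammation 1, 2 or 3 or resolution 3 or 4 (adjusted p up to 0.092), and the Hoxd9 call without any 1 of the inflammation libraries or resolution 2 or 3 (up to 0.12) and in the 12-library replicate block (0.058). With resolution 2 alone Hoxd9 had a log2 fold change of 1.77. Tbx4, the hindlimb counterpart of Tbx5 and named after its values were seen, lay at 12.6 to 17 CPM in inflammation and 14.1 to 18.9 CPM in resolution (0.12 ± 0.15, adjusted p = 0.61).

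Homeostasis levels are given for context. Hoxd13 averaged 29.1 ± 3.58 CPM (SD, n = 4) in homeostasis, Hoxd11 24.8 ± 4.02 CPM, Hoxc10 between 2.05 and 3.49 CPM, Tbx5 between 1.57 and 3.66 CPM and Pitx1 between 5.01 and 8.20 CPM. The joints or limbs from which each group's cells were grown are not stated in the labels, and anatomical origin and treatment group cannot be told apart.

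**Figure D4:**
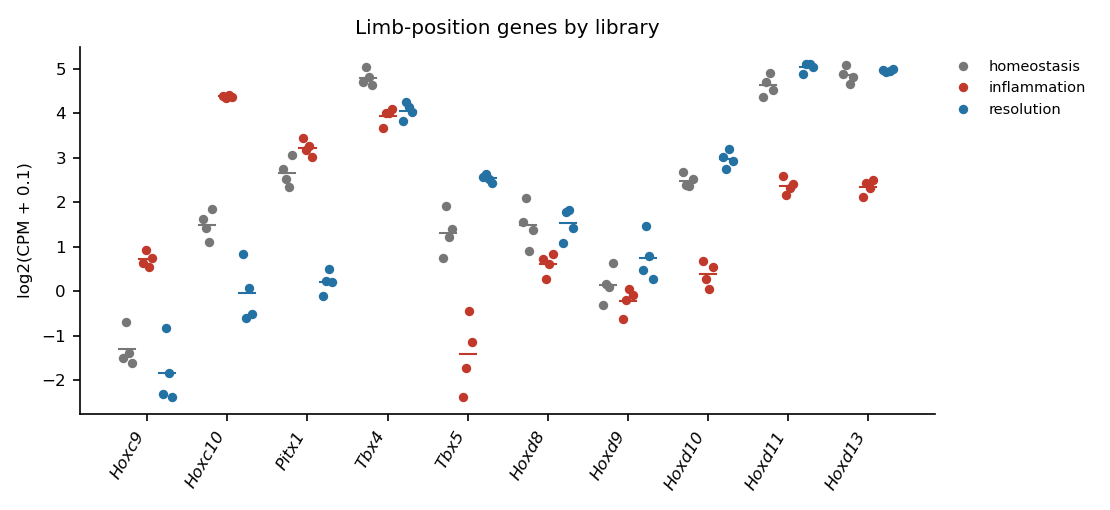
Level of 10 limb-position genes (x axis) as log2(CPM + 0.1) (y axis), 1 point per library with the group mean as a line. Hoxc9, Hoxc10 and Pitx1 are high in inflammation, and Tbx5, Hoxd10, Hoxd11 and Hoxd13 are high in resolution, with no overlap between these groups.

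Interferon-stimulated genes, encode antiviral effectors and sensors. Of 40 tested 17 were higher in resolution and 0 lower, with a median log2 fold change of 0.68, against 8.52% higher and a median of 0.02 over all genes. With the replicate block on 8 libraries 30 were higher, and the offsets for GC left 13. Leaving out inflammation 2 left 11 and leaving out resolution 4 left 10. Their summed level was 2770 to 2960 CPM in inflammation and 4080 to 4740 CPM in resolution. Several members belong to families of similar copies (Ifit, Oas, Gbp, Slfn), for which the authors' counting could split reads. The same holds for Ifi205 of the Ifi200 family, a gene outside this list.

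Slfn5, a member of the Schlafen family, read 8.64, 7.94, 7.1 and 10.5 CPM in inflammation and 72.1, 42.5, 73 and 80.1 CPM in resolution. It rose by 2.97 ± 0.29 (adjusted p = 6.2e-07), and by 2.31 with resolution 2 alone, whose level was the lowest of the 4. Oas2, an enzyme that makes the activator of RNase L, read 4.02, 3.28, 3.87 and 4.29 CPM and then 23.3, 28.9, 24.9 and 26.3 CPM, a rise of 2.74 ± 0.29. Trim30a, a ubiquitin ligase, rose by 1.82 ± 0.22, and Sp100, a component of nuclear bodies, by 1.80 ± 0.19. Outside the list, Ifi205, a nuclear protein of the interferon-inducible p200 family, rose by 2.53 ± 0.25. Homeostasis libraries were lower still for Slfn5, at 0.711 to 3.25 CPM.

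The first members of the list did not pass the test. Ifit1, which binds foreign RNA caps, read 107, 88.5, 98.3 and 104 CPM in inflammation and 273, 158, 206 and 250 CPM in resolution. These groups did not overlap, and the log2 fold change was 1.15 ± 0.43 with an adjusted p of 0.091. It passed in a fit restricted to the 8 libraries (adjusted p = 4.5e-05) and with the replicate block there (7.5e-09). Isg15, a ubiquitin-like modifier, lay at 135 to 168 CPM and 145 to 221 CPM, with overlap (0.36 ± 0.53, adjusted p = 0.66; 0.014 with the block on 8 libraries). Among receptors, STATs and IRFs 2 of 16 were higher and 1 lower, near the 8.52% and 7.64% over all genes. The numbers were 5 and 1 with the block on 8 libraries, and 1 was higher without inflammation 1 or 2 or resolution 3 or 4. Jak2, a kinase of cytokine receptors, rose by 1.05 ± 0.16, and Irf8, a factor of myeloid cells, fell by 1.87 ± 0.40 (1.00 with resolution 2 alone), in the direction of the macrophage markers.

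Promoter sequences of 4 genes, 250 bases ending before the annotated start, show the interferon-stimulated response element core, GAAANNGAA, which was searched on both strands. Capitals mark its matches, as GAAANNGAA or as its reverse complement, and touching or overlapping matches run together. The sequences are from RefSeq, build GRCm38.p6. Slfn5 (chr11:82951852-82952101, plus strand), Ifit1 (chr19:34640639-34640888, plus strand), Isg15 (chr4:156200819-156201068, minus strand) and B2m (chr2:122147437-122147686, plus strand) are shown as the largest rise of the interferon-stimulated list, its first 2 members, which were not called, and a called class I gene.
Slfn5: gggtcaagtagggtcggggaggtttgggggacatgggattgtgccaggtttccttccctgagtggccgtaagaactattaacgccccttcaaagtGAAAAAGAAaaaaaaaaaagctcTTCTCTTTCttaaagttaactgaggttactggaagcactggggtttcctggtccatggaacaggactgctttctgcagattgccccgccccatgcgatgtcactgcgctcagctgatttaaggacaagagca
Ifit1: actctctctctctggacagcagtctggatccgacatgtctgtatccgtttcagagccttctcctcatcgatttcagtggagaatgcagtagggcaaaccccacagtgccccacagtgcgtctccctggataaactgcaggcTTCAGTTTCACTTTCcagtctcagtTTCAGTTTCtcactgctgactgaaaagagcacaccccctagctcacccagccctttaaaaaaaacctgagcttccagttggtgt
Isg15: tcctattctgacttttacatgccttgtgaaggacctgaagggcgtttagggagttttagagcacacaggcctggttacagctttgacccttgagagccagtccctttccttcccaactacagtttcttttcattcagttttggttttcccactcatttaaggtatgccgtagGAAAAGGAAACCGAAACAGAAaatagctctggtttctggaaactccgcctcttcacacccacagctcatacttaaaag
B2m: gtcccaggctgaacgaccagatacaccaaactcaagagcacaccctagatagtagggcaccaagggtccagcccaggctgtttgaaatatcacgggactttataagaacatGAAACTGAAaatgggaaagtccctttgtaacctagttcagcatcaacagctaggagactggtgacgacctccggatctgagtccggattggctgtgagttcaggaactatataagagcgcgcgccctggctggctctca
Slfn5 held 2 matches, Ifit1 3, Isg15 3 and B2m 1, while the largest of the 4 changes was that of Slfn5. The core stood in 677 of 10788 promoters of all tested genes with a sequence (6.28%) and in 14 of 30 of the interferon-stimulated list (46.7%). Within the list it stood in 6 of 12 promoters of genes called higher and in 8 of 18 of those not called. In the class I list the core stood in 3 of 16 promoters (18.8%), 2 of 8 of called genes and 1 of 8 of those not called. Sp100 and Psmb9, a called class I gene, were searched as well and had no match in this window.

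Class I antigen presentation, by which cells show peptides to cytotoxic T cells, rose in 8 of 18 tested genes and fell in 1, with a median of 0.42. Over all genes 8.52% were higher and 7.64% lower. B2m, the light chain shared by all class I molecules, read 656, 631, 627 and 616 CPM in inflammation and 1200, 1400, 1510 and 1300 CPM in resolution. Every resolution library was above every inflammation library, and B2m rose by 1.09 ± 0.14 (adjusted p = 1.4e-05). H2-D1, a classical heavy chain, rose by 1.07 ± 0.20, H2-Q4, a related heavy chain, by 1.30 ± 0.27, and Psmb9, a catalytic subunit of the immunoproteasome, by 1.24 ± 0.23, from 1.42 to 2.58 CPM up to 4.09 to 5.65 CPM. The H2 genes are near-identical copies, and their reads could be divided differently. The gene that fell, Calr, a chaperone of the endoplasmic reticulum (named after its value was seen), had a log2 fold change of -0.49 ± 0.14, a call lost without inflammation 1 or 2 or resolution 3 or 4 (adjusted p up to 0.084). H2-D1, H2-Q4 and Psmb9 have transcripts of the second highest GC bin, whose median was -0.16, and 12 members were higher with the offsets. Without inflammation 1 or without resolution 4 5 were higher.

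**Figure D5:**
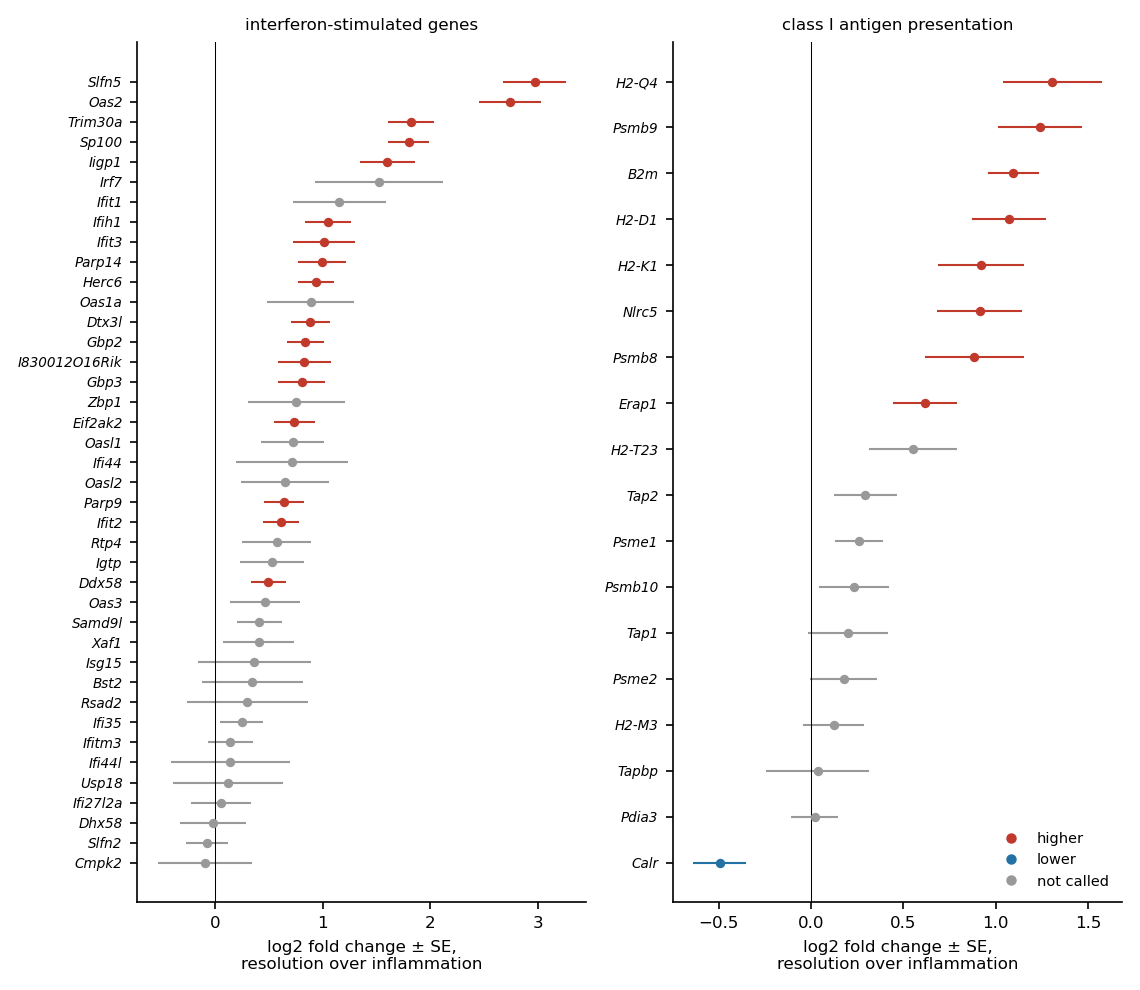
Log2 fold change with its standard error (x axis) for each tested interferon-stimulated gene (left) and class I gene (right). Red points were called higher, blue lower and grey neither; 17 of 40 and 8 of 18 are red, and Calr is the 1 blue point.

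Of 20 complement genes tested 5 were higher and 7 lower, against 8.52% and 7.64% over all genes. C4b, a component of the classical pathway, rose by 0.98 ± 0.18. C1qa, C1qb and C1qc, the chains of C1q that macrophages make, fell by 3.97 ± 0.61, 5.04 ± 0.63 and 4.11 ± 0.54 from at most 6.35 CPM. Their log2 fold changes with resolution 2 alone were -5.96, -4.10 and -2.99. Leaving out 1 library moved the value of C1qb between -5.64 and -4.63 and that of C1qc between -4.85 and -3.70, and the levels in resolution were at or near the floor. C3, the central component, lay at 627 to 1200 CPM and 422 to 772 CPM (adjusted p = 0.3). The part of the macrophage markers, which fell in the same libraries, was not tested.

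Of 25 NF-kB targets and regulators 1 was higher and 2 lower, against 8.52% and 7.64% over all genes (4 and 5 with the block on 8 libraries), with a median of -0.04 (0.11 with the offsets). Without resolution 2 the numbers were 3 and 4; 3 were higher without inflammation 4 and 2 without inflammation 3, and 1 was lower without resolution 3. Nfkbia, the inhibitor that NF-kB induces, lay at 128 to 144 CPM in inflammation and 120 to 148 CPM in resolution (-0.03 ± 0.16, adjusted p = 0.92). Il6, the cytokine of the acute phase, lay at 321 to 422 CPM and 345 to 485 CPM (0.19 ± 0.19), and Ccl2, the monocyte chemokine, at 1170 to 1230 CPM and 1110 to 1510 CPM (0.07 ± 0.18). The sign of these 3 small values changed with the GC offsets.

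Chemokines, which guide leukocytes, gave 5 higher and 5 lower of 19 tested, against 8.52% and 7.64% over all genes. Ccl11, eotaxin, which attracts eosinophils, read 6.35, 3.44, 7.1 and 7.6 CPM in inflammation and 61.2, 73.2, 104 and 86.3 CPM in resolution. The groups lay far apart with no overlap, and Ccl11 rose by 3.73 ± 0.24 (adjusted p = 1e-09). In homeostasis it lay at 3.65 to 5.57 CPM. Pf4, a chemokine of platelets and macrophages, fell by 4.56 ± 0.36 and Ccl9, a myeloid chemokine, by 2.54 ± 0.26, together with the macrophage markers, whose part was not tested. The number of chemokines higher was 2 without inflammation 1, and 3 without inflammation 2 or without resolution 4.

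Cytokines gave 3 higher and 4 lower of 22 (6 higher with the block on 8 libraries), against 8.52% and 7.64% over all genes. Tslp, which alerts dendritic cells and favours type 2 responses, read 6.67, 7.29, 10.7 and 10.2 CPM and then 37.5, 36.6, 56.9 and 43.2 CPM, a rise of 2.32 ± 0.21 (adjusted p = 2.5e-07). Homeostasis levels of Tslp, 6.5 to 11.8 CPM, were those of inflammation. Il1rn, the interleukin 1 receptor antagonist, fell by 2.06 ± 0.28 and Csf3, the growth factor of neutrophils, by 3.01 ± 0.40, from 8.50 to 18.2 CPM down to 0.876 to 2.18 CPM.

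Of 19 collagen chains 11 were lower and 0 higher, with a median of -0.79, against 7.64% lower over all genes. Col1a1, the main chain of type I collagen, read 8450, 7900, 7600 and 8650 CPM in inflammation and 1920, 4690, 3250 and 2610 CPM in resolution. All resolution libraries were lower, resolution 2 least so, and Col1a1 fell by 1.39 ± 0.19 (adjusted p = 4.4e-05; 0.80 with resolution 2 alone). Col1a2 fell by 1.15 ± 0.16, Col3a1, of reticular fibres, by 1.13 ± 0.16 and Col11a1, of cartilage and thin fibrils, by 1.71 ± 0.19. With the offsets 11 collagen chains were lower, and summed collagen levels were 32600 to 40800 CPM in inflammation and 13800 to 24800 CPM in resolution.

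Enzymes that process collagen were lower in 8 of 20 and higher in 1, with Fkbp10, a procollagen chaperone, at -0.84 ± 0.15 and Serpinh1, the collagen chaperone HSP47, at -0.70 ± 0.14. Of 24 elastic fibre and matricellular genes 6 were lower and 1 higher, and 10 were lower without resolution 2 (11 with the block on 8 libraries). Ltbp1, which tethers latent TGF-beta to matrix, read 250, 257, 295 and 400 CPM and then 73.3, 76.8, 105 and 91.1 CPM, a fall by 1.80 ± 0.16. Of 11 basement membrane genes 4 were lower and 1 higher (0 higher without inflammation 1 or 2 or resolution 2 or 3), and the laminin chain Lama2 fell by 1.49 ± 0.22. Of 9 small leucine-rich proteoglycans 2 were lower and 0 higher, against 7.64% and 8.52% over all genes.

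Contractile and TGF-beta-induced genes, the profile of myofibroblasts, were lower in 8 of 20 and higher in 2 (6 and 0 with the offsets). Over all genes 7.64% were lower and 8.52% higher. Tgfbi fell by 1.19 ± 0.14 and the ligand Tgfb3 by 1.17 ± 0.16. Acta2, smooth muscle actin, fell by 0.56 ± 0.15, from 5970 to 8570 CPM down to 3900 to 5670 CPM, a call lost without inflammation 1, resolution 3 or resolution 4 (adjusted p up to 0.056). The number lower was 4 without inflammation 1, resolution 3 or resolution 4, 5 without inflammation 2, and 12 with the block on 8 libraries. Comp, a matrix protein of tendon and cartilage, rose by 1.02 ± 0.16 against this direction and against the GC trend of its bin.

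Cell division genes were lower, in larger shares than the 7.64% over all genes. Of 25 mitosis genes 24 were lower and 0 higher, with a median of -1.27, and of 25 DNA replication genes 18 were lower and 0 higher, with a median of -0.95. With the offsets the numbers lower were 25 and 20, and with resolution 2 alone the medians were -1.50 and -0.95. Plk1, the kinase that drives entry into and exit from mitosis, read 32.5, 35.2, 32 and 26.6 CPM in inflammation and 10.9, 11.1, 7.63 and 9.06 CPM in resolution, a fall by 1.71 ± 0.14 (adjusted p = 8e-08). Mki67, the proliferation marker, fell by 1.15 ± 0.22 (1.99 with resolution 2 alone). Mcm5 and Mcm2, subunits of the replicative helicase, fell by 1.49 ± 0.13 and 1.27 ± 0.13. Homeostasis was above both groups, with Plk1 at 128 to 140 CPM. Pcna, the sliding clamp, lay at 17.1 to 21.6 CPM and 16.9 to 21.1 CPM (-0.04 ± 0.15, adjusted p = 0.87).

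The promoters of 3 mitotic genes are shown for the pair of elements known from cell cycle promoters, the CCAAT box and the cell cycle homology region TTTGAA, both searched on both strands. Capitals mark their matches in either orientation. Plk1 (chr7:122159185-122159434, plus strand), Ccnb1 (chr13:100786487-100786736, minus strand) and Cdk1 (chr10:69352913-69353162, minus strand) are from RefSeq, build GRCm38.p6.
Plk1: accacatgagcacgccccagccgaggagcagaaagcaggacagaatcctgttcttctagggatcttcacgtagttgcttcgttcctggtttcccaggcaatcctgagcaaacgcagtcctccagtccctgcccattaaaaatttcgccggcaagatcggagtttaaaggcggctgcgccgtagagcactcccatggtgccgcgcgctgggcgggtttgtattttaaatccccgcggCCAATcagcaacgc
Ccnb1: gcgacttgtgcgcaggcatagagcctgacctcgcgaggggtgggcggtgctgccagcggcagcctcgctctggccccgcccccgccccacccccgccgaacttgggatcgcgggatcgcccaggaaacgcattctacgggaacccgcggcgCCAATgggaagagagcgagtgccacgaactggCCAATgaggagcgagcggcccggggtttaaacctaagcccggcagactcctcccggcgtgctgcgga
Cdk1: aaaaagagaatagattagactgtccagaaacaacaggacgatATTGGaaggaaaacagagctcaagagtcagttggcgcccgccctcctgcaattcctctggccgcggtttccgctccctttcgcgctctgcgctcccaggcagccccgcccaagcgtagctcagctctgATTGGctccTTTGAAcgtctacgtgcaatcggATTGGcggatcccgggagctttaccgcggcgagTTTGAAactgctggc
Plk1 held 1 CCAAT match, Ccnb1 2, and Cdk1 3 with 2 of TTTGAA. The CCAAT box stood in 36.1% of the promoters of all tested genes with a sequence, in 17 of 21 of the mitosis list (81.0%) and in 12 of 19 of the replication list (63.2%), and TTTGAA in 10.7%, 7 of 21 (33.3%) and 3 of 19. Neither was limited to these lists: TTTGAA stood in 9 of 30 promoters of the interferon-stimulated list and the CCAAT box in 11 of 16 of the class I list (68.8%). Cdk1, the kinase of mitotic entry, fell by 1.36 ± 0.14 and Ccnb1, its cyclin partner, by 1.35 ± 0.18; both were named after their values were seen.

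Targets of p53, the factor that restrains damaged cells, were among 18 cell cycle inhibitors and p53 targets, of which 4 were higher and 2 lower (7 and 1 with the offsets). The shares over all genes were 8.52% and 7.64%. The median of the list was -0.10 (0.19 with the offsets), with 8 positive and 10 negative log2 fold changes. Ccng1, a cyclin induced by p53, read 317, 307, 323 and 253 CPM and then 776, 425, 731 and 701 CPM, a rise of 1.14 ± 0.16 (0.50 with resolution 2 alone). Mdm2, the ubiquitin ligase that limits p53, rose by 0.97 ± 0.16 and Fas, a death receptor, by 0.89 ± 0.12. Gadd45a, a growth arrest gene named after its value was seen, rose by 0.79 ± 0.18. With resolution 2 alone the log2 fold changes were 0.51 for Mdm2, 0.70 for Fas and 0.99 for Gadd45a. The CDK inhibitor Cdkn1a lay at 244 to 295 CPM and 253 to 352 CPM (0.14 ± 0.18, adjusted p = 0.6; 0.046 with the offsets). The number lower was 4 without resolution 2, 5 with the block on 8 libraries, and 1 without inflammation 2, inflammation 3, resolution 3 or resolution 4.

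Secreted factors that act on endothelial cells, the subject of the series, moved in both directions. Of 40 tested 9 were higher and 7 lower, with a median of -0.07, against 8.52% and 7.64% over all genes. Nov, a matricellular protein that binds endothelial integrins, read 22.8, 21.4, 20.4 and 23.9 CPM in inflammation and 49, 48.6, 71.5 and 56.7 CPM in resolution, a rise of 1.35 ± 0.14 (adjusted p = 1.7e-06). Hgf, the ligand of MET, rose by 0.79 ± 0.15, from 47.4 to 58.3 CPM up to 74.2 to 116 CPM. Bmp6, a ligand for endothelial BMP receptors, rose by 0.76 ± 0.18 with a transcript of the highest GC bin. Igf1 rose by 0.70 ± 0.16, a call lost with the offsets (adjusted p = 0.12). Ptn, pleiotrophin, fell by 2.25 ± 0.27, from 3.48 to 4.60 CPM down to 0.567 to 1.11 CPM. Vegfa, the main growth factor of vessels, lay at 106 to 126 CPM and 92.5 to 123 CPM (-0.12 ± 0.14, adjusted p = 0.58). The number lower was 4 without inflammation 2, resolution 1 or resolution 4 and 12 with the block on 8 libraries.

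Prostacyclin synthase, the product of Ptgis, makes the lipid that relaxes vessels and restrains platelets. Ptgis read 29.4, 28.8, 30.5 and 22.8 CPM in inflammation and 4.54, 4.11, 4.4 and 3.33 CPM in resolution. It fell by 2.77 ± 0.20 (adjusted p = 7e-09), by about the same with resolution 2 alone, and in homeostasis it lay at 9.17 to 18.2 CPM. Ptger2, a receptor for prostaglandin E2, fell by 1.34 ± 0.34 and Hpgd, which degrades prostaglandins, rose by 1.04 ± 0.20. Together with Ptgis these were the 3 genes called of 13, against 8.52% higher and 7.64% lower over all genes. Ptgs2, the inducible cyclooxygenase, lay at 1060 to 1410 CPM and 791 to 1370 CPM (-0.23 ± 0.19, adjusted p = 0.4; 0.038 with the offsets).

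Of 24 Wnt pathway genes 5 were higher and 3 lower, and of 22 BMP genes 5 were higher and 1 lower (6 and 3 with the block on 8 libraries), against 8.52% higher and 7.64% lower over all genes. With the GC offsets the Wnt numbers were 8 and 4 and the BMP numbers 3 and 3. Bmp5, a ligand, rose by 1.84 ± 0.22 (1.10 with resolution 2 alone). Rspo3, which amplifies Wnt signals, read 14.8, 14.3, 14.7 and 16.4 CPM and then 30.9, 28.9, 39.7 and 34.5 CPM, a rise of 1.16 ± 0.14. The secreted antagonists went separate ways: Sfrp1 fell by 1.83 ± 0.19 and Sfrp2 rose by 1.54 ± 0.29. Wnt5b, a ligand, fell by 1.82 ± 0.24. Leaving out 1 library gave as few as 2 Wnt genes higher (inflammation 1; 3 without inflammation 2, inflammation 3, resolution 1 or resolution 3) and 2 BMP genes higher (resolution 1 or 4; 3 without inflammation 1, 2 or 3 or resolution 3).

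Of 22 cholesterol synthesis and uptake genes 11 were lower and 0 higher, with a median of -0.37, and 12 were lower with the offsets. Over all genes 7.64% were lower and 8.52% higher. The number lower was 7 without inflammation 1, resolution 3 or resolution 4. Of 12 lipid efflux and transport genes 4 were higher and 1 lower (2 higher without inflammation 4 or resolution 4): the lipid carriers Apoe and Apod rose by 1.25 ± 0.19 each. Of 21 chaperones of the endoplasmic reticulum 8 were lower and 1 higher, with Hyou1 at -0.71 ± 0.13 and Pdia6 at -0.69 ± 0.13, and the number lower was 3 without resolution 3, 4 without inflammation 1, inflammation 2 or resolution 4, and 5 without resolution 1.

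Against shares of 8.52% higher and 7.64% lower over all genes, none of 30 nuclear-encoded respiratory chain genes and none of 10 mitochondrially encoded genes was called by edgeR; the block on 8 libraries called 5 and 1 of them lower, and DESeq2 0 and 1. Of 38 ribosomal protein genes 1 was lower and 0 higher, and of 29 glycolysis and hypoxia genes 2 were lower, near the share over all genes, and 0 higher. The glycolysis count was 8 lower without resolution 2, 13 lower with the block on 8 libraries, 0 without resolution 3 and 1 without any of the others but inflammation 4.

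Several single genes rose with transcripts of the highest GC bin, where the median was -0.22. Cck, the peptide hormone cholecystokinin, read 77.7, 76.2, 82.1 and 75.3 CPM in inflammation and 320, 295, 307 and 293 CPM in resolution, a rise of 1.96 ± 0.22 (adjusted p = 3.3e-06). Its libraries were tight within each group and did not overlap. Sim2, a bHLH transcription factor, rose by 2.51 ± 0.30, Cygb, a globin of fibroblasts and stellate cells, by 1.97 ± 0.20, and Ggt1, which breaks down glutathione, by 1.74 ± 0.23. The antioxidant enzyme gene Gpx3 rose by 1.11 ± 0.14. Aldh1a1, which makes retinoic acid, rose by 2.45 ± 0.21 with a transcript of the second lowest bin.

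Meg3, Rian and Mirg, transcripts of 1 imprinted cluster, were the 3 genes called lower of 8 tested nuclear long non-coding RNAs. Over all genes 7.64% were lower. Rian read 71, 60.7, 71.1 and 85.3 CPM and then 18.9, 20.7, 27.7 and 29.9 CPM, a fall by 1.57 ± 0.19 (adjusted p = 7.4e-06), although its transcript is of the lowest GC bin. Meg3 fell by 1.64 ± 0.28 (1.02 with resolution 2 alone), Mirg by 1.42 ± 0.31, and H19, of another imprinted locus and not in that list, by 1.72 ± 0.22. The labels do not state the strand setting of the counting, so overlapping transcripts cannot be told apart.

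Markers of synoviocytes and of other cell types were also counted, and their calls stand against 8.52% higher and 7.64% lower over all genes. Of 15 synoviocyte markers 2 were higher and 5 lower, with a median of -0.08 (1 higher without inflammation 1, 2 or 3 or resolution 1, 3 or 4). Among 10 lining fibroblast markers 1 was higher and 2 were lower, and among 12 sublining markers 3 were higher and 2 lower. Other cell types were also summed. The 6 adipocyte markers came to 207 to 248 CPM in inflammation and 268 to 351 CPM in resolution, with 3 higher and 1 lower (1 higher without inflammation 1 or 2 or resolution 1 or 4). The 8 chondrocyte markers came to 202 to 282 CPM and 108 to 152 CPM, with 1 higher (Comp) and 1 lower (Col11a1). Most of this sum in inflammation was Col11a1, which averaged 191 CPM there and 58.4 CPM in resolution. Of the 8 members 6 had a positive log2 fold change, and the median was 0.13. The 8 tested endothelial markers summed to 13.5 to 23.5 CPM in inflammation and 17.3 to 22.5 CPM in resolution, with 2 higher and 0 lower (0 higher without resolution 3 and 1 without any 1 inflammation library). Of 7 Schwann cell and glial markers 4 were higher, with sums of 11.2 to 14.5 CPM and 20.2 to 24.9 CPM; S100b rose by 1.92 ± 0.24. Of 7 skeletal muscle markers 4 were lower, with sums of 61.2 to 92.6 CPM and 26.5 to 40.2 CPM, and Acta1, skeletal actin, fell by 1.34 ± 0.17. The part of such cells in the results above was not tested.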

How the data were processed

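RNA from cultured synovial fibroblasts was sequenced after poly(A) selection with paired reads of 150 bases, per the labels' protocols. The authors deposited 1 table of estimated counts per gene symbol, of which 1.43% are not whole, and these were rounded. The submitters' processing notes name build GRCm38.p3; aligner, counter, annotation and strand setting are not given in the sources used. Of 36930 entries 13 without a value were left out and 42 repeated entries were summed, leaving 36875 symbols.

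Counts of all 12 libraries were fitted with edgeR 4.0.16 (R 4.3.3, limma 3.58.1; TMM, filterByExpr, robust quasi-likelihood test), and resolution was contrasted with inflammation with Benjamini-Hochberg adjustment. DESeq2 1.42.0 was run as an alternative. On simulated counts for 15049 genes, 22.4%, 67.2% and 95.5% of genes changed 1.5-, 2- and 4-fold were recovered, with 8 calls among 14849 unchanged genes. The simulated libraries had no GC trend, no deviating library and no pairing, so these numbers are not an error rate for the real data. GC content and length are those of the longest GENCODE M21 transcript of each symbol. The fit with resolution 2 as its only resolution library and the block on 8 libraries were added after the data were seen; in the former the lone library is assumed to vary like the other groups.

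Same-numbered inflammation and resolution libraries deviated together from their group means (correlations 0.14, 0.13, 0.21 and 0.14). Because each exceeded 0.1, the replicate number was used as a block in alternative fits. The main test had no block and treated the libraries as unpaired. The correlations are a hint only: no label gives a shared source, and differently numbered pairs reached 0.20 (inflammation 1 with resolution 2) and 0.13 (inflammation 4 with resolution 3). No library pair agreed within sampling noise (reduced chi-square at least 9.5).

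Genes were named by a rule: Tnf; the 10 largest rises and falls at an adjusted p under 0.05, with a mean of 5 CPM or more in 1 group and no overlap; the first members of each gene list and up to 4 further ones with the smallest adjusted p; and 5 rises and 5 falls against the GC trend. The gene lists and the comparison were chosen with earlier results of these data known. Intervals of counting error are not given, and floors cover counting error only. Some genes are not reported here.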

Additional observations from a re-analysis of the deposited data

Results flagged for a closer look

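In 10 of 244 groups of 4 libraries 1 library lay far from the other 3 by Dixon's criterion, which chance meets in about 1 in 20 groups. Resolution 2 was the outlying library for Hcls1 (1.03 CPM), Trim30a (17.3 CPM) and Fkbp10 (452 CPM). Resolution 3 was it for Mmp12 (10.5 CPM). Among the inflammation libraries, replicate 4 stood apart for Itgam (67.7 CPM), replicate 3 for Ifi205 (1.27 CPM) and Igf1 (16.4 CPM), replicate 2 for Ggt1 (1.68 CPM) and replicate 1 for Hyou1 (474 CPM). Inflammation 3 also stood apart in the median log2 deviation of the lowest GC bin (-0.07).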

How the results depend on the processing

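The number of genes higher ranged from 482 to 2360 and the number lower from 760 to 1831 when 1 library was left out. In the fit of the 8 libraries only, without a block, these numbers were 1623 and 1444. With the replicate block on 8 libraries they were 2585 and 2223, and with resolution 2 as the only resolution library 79 and 234; the block on all 12 libraries gave 948 and 950. The 5 bins of GC content, from lowest to highest, had median log2 fold changes of 0.06, 0.05, 0.05, 0.02 and 0.02 with the GC and length offsets, of 0.06, 0.05, 0.05, 0.02 and 0.01 with the offsets and the replicate block, and of 0.00, -0.05, -0.01, 0.00 and 0.03 with resolution 2 alone. The middle bin, at 0.02, was -0.04 with upper-quartile factors, 0.08 with total count alone, 0.00 with a mean of at least 1 CPM, with 8 libraries only and with the block on those, and -0.01 to 0.05 with 1 library left out. Signs changed for Ccl2 (-0.12 with the offsets, with and without the block, -0.04 to 0.12 with 1 library left out, the lowest without resolution 3, -0.10 with resolution 2 alone), Il6 (-0.05 with the offsets, -0.04 with the block too), Nfkbia (0.15 with the offsets, with and without the block, 0.04 with total count alone, -0.09 to 0.01 with 1 library left out, the highest without resolution 3, 0.13 with resolution 2 alone), Pcna (0.03 with total count alone, 0.02 without resolution 2), and, with resolution 2 alone, Vegfa (0.08) and Cdh11 (-0.07); none of these was called. The cause was not tested. Of 114 tested genes named in the text 100 were called. The 12-library block ended the call of Hoxd9 (adjusted p = 0.058) and added that of Ifit1 (0.037), and the 8-library block added 3; the pairing changed no other call among them. DESeq2 and its size factors changed none. With resolution 2 alone 4 of the 114 genes changed sign, none of them called. Lost calls are not counted for that fit, because 1 library has less power. Levels of a few reads per library limit Tnf, Marco, Tyrobp and the C1q chains.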
